A study of Mus musculus with 18 samples.

Results

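Semaphorins and their plexin receptors, and the ephrin-A ligands with their EphA receptors, were examined in endothelial and other cells of the growing mouse retina. Members were the genes whose symbols begin with Sema3 to Sema7, Plxna to Plxnd, Epha or Efna, except Sema3e and Plxnd1, as named by probe sets that carry exactly 1 gene symbol. The rule found 42 of the 15964 genes measured, namely 19 semaphorins, 8 plexins, 5 ephrin-As, 9 EphA receptors and Plxna4os1, an antisense transcript of Plxna4 that matches the pattern but encodes no plexin. All 42 genes of that pattern in the mouse RefSeq gene table had such a probe set. Where a gene had several probe sets, the brightest by mean intensity over all 6 arrays of its chip was taken.

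The study compared GFP-positive retinal cells, labelled as endothelial, with GFP-negative retinal cells at postnatal day 8. All mice were homozygous Tie2-GFP transgenic animals of the FVB/N strain, so both populations carried the transgene, and GFP marked cells in which the Tie2 promoter was active. Retinas were pooled, digested with papain and sorted by flow cytometry, and amplified RNA was hybridised to the 3 chips (A, B and C) of the Affymetrix MGU74v2 series, with 3 arrays for each population on each chip. No label states that the arrays stand for different animals, and the p-values reflect array-to-array spread alone, and that spread may be technical.

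Semaphorins are secreted, membrane-spanning or lipid-anchored guidance proteins that bind plexins, in the case of most class 3 members together with neuropilins. Activated plexins act on small GTPases and on the cytoskeleton, and the same signals steer both axons and vessel sprouts. Ephrin-As are held in the membrane by a lipid anchor and bind EphA receptor tyrosine kinases on neighbouring cells. In the retina, graded EphA and ephrin-A signals are known for guiding ganglion cell axons to their map in the brain.

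The sort was checked with marker lists. All 10 endothelial markers were higher in GFP-positive cells, and Tek, the gene whose promoter drove GFP, had 442 ± 174 intensity units in GFP-positive and 8.23 ± 1.46 in GFP-negative cells (mean ± SD, n = 3 arrays each, as for all such pairs here). None of 10 pericyte and mural markers was higher, and 2, Rgs5 and Abcc9, were lower. Pdgfrb, Acta2, Anpep and Tagln of that list read below their chip's median in both populations. Such dim markers can show little about the presence of mural cells. Of 8 Müller glia markers 6 were lower. Of 9 ganglion cell markers 2 were higher (Stmn2 by 1.77 and Sncg by 0.70) and 2 lower, and of 10 microglia and macrophage markers C1qb was higher (0.78). Astrocyte, amacrine and horizontal, bipolar, photoreceptor and erythroid markers included 0 that were higher in limma's test (at an unadjusted p under 0.05, 1 erythroid marker, Hba-a1, was). GFP-positive replicate 3 stood apart, with Spearman correlations of 0.911 to 0.929 to its fellow arrays, against 0.96 to 0.987 for the other pairs of 1 population. Its summed signal of the 10 microglia and macrophage markers measured on chip A was 1333 units, against 377 and 372 in GFP-positive replicates 1 and 2 and 398 to 430 in GFP-negative arrays. Csf1r, the receptor of a macrophage growth factor, read 929.8 units there and 37.3 and 41.2 in the fellow arrays, while Ptprc, the pan-leukocyte marker, read 56.7 and none of the 10 was at 0. The other 9 markers of that list summed to 404 units in replicate 3, against 340.2 and 331 in replicates 1 and 2 and 299 to 318 in GFP-negative arrays. Without replicate 3, Hba-a1 was higher (0.44, adjusted p = 0.0273 in limma's test), Csf1r was lower (-1.13, adjusted p = 0.00108), 7 of 8 Müller glia markers were lower, 1 photoreceptor marker was lower in place of 3, and 2 amacrine and horizontal markers in place of 1.

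Most members did not pass the test between the populations. Of the 42 members 4 were higher in GFP-positive cells, Sema3g, Sema6d, Efna1 and Sema7a, and 6 were lower, Epha5, Efna5, Sema5a, Plxnc1, Sema4g and Plxnb2, at an adjusted p under 0.05. These were 9.52% and 14.3% of the members, against a background of 9.89% higher and 12.2% lower among all genes, so both shares were near the background. All 4 members that rose (9.52%) and 5 of the 6 that fell differed by at least 2-fold, against 4.75% and 6.57% of all genes. With that limit both member shares lay above those of all genes, but the counts are small and nothing is read from them. Of the 20 members on chip A 1 rose and 2 fell, where 9.09% of probe sets were higher and 9.25% lower. Of the 14 on chip B 2 rose and 1 fell, where 9.60% were higher and 11.3% lower. Of the 8 on chip C 1 rose and 3 fell, where 3.40% were higher and 5.88% lower. These percentages cover every probe set of a chip, dim and unnamed ones included. Each member is its gene's brightest probe set, so the counts by chip and the percentages are not directly comparable. The median log2 difference was 0.09 over the members and 0.04 over all genes. Here and below a log2 difference is GFP-positive minus GFP-negative on the scale of log2 of intensity plus 16, which understates the change of dim probe sets, and tests are limma fits of all probe sets of a chip. In bulk RNA fewer cells of a type and less RNA per cell cannot be told apart.

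By role, all 4 members that rose were ligands, out of 24 semaphorins and ephrin-As, and none of the 17 plexin and EphA receptors rose. Among the ligands 3 fell, and among the receptors 3 fell. Of all genes 9.89% rose and 12.2% fell, and with so few members nothing is read from the counts by role. At an unadjusted p under 0.05 in limma 2 receptors, Plxna4 and Epha2, were higher. Plxnd1, a plexin receptor that the rule leaves out, rose by 3.61 (adjusted p = 2.68e-05 in limma's test). The absence of rising receptors therefore holds for the members only. Sema3e, a ligand also left out, did not pass (-0.35, adjusted p = 0.215 in limma's test). The difference between ligands and receptors was not tested.

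**Figure D1:**
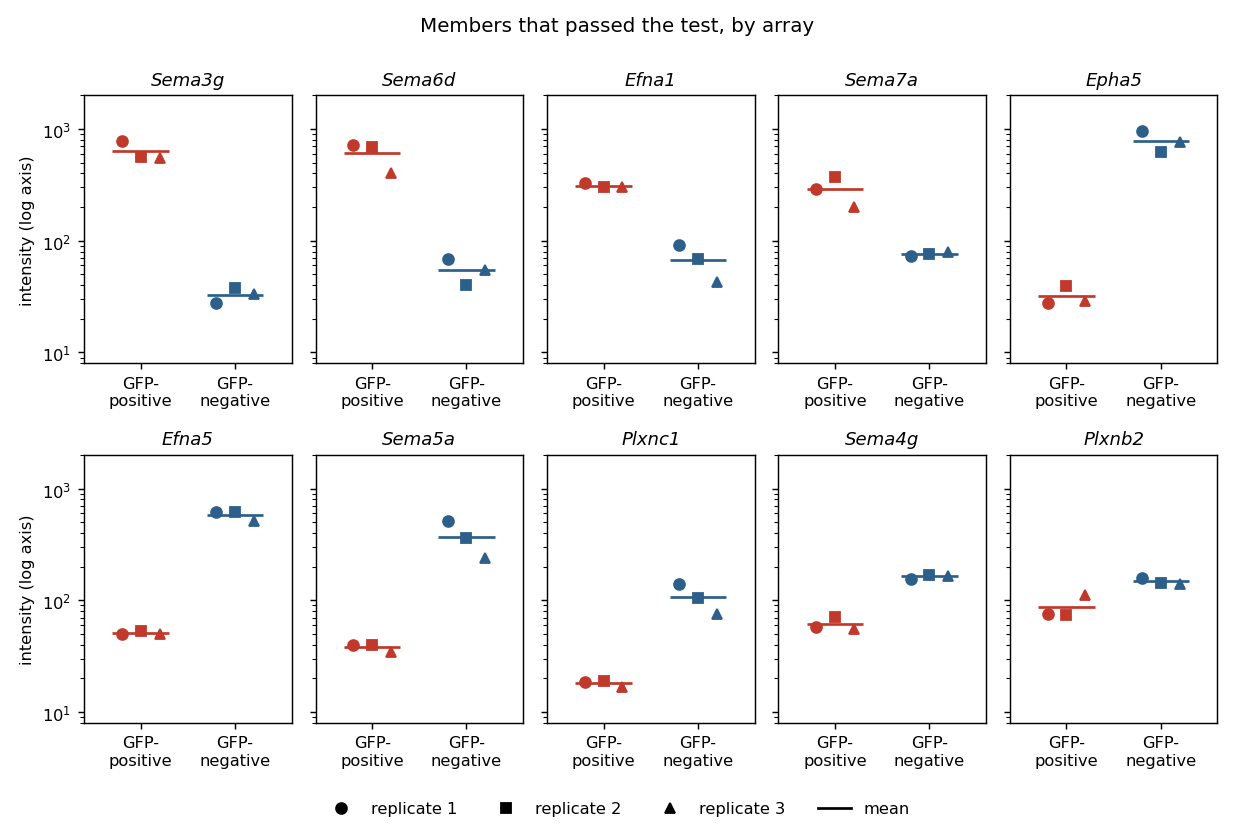
Intensity on a log axis of the 10 members that passed the test, with each array as a symbol by replicate number and the mean as a line, GFP-positive cells left and GFP-negative cells right. The 3 arrays of each population lie apart from those of the other in all 10 genes, closest in Plxnb2 with a highest GFP-positive value of 111 and a lowest GFP-negative value of 140.0.

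Sema3g, a secreted class 3 semaphorin known from arterial endothelium, showed the largest difference in the family towards GFP-positive cells. Its probe set on chip B read 779, 562 and 549 units in the GFP-positive arrays and 27.6, 37.8 and 33.5 units in the GFP-negative arrays. The populations were far apart, and the GFP-negative values lay below the chip's median of 43.1. The log2 difference was 3.71 (SE 0.16, adjusted p = 3.49e-05), and it was 3.80 without GFP-positive replicate 3. Epha5, a receptor of ephrin-As in retinal neurons, was the mirror case on chip A, with 27.7, 39.6 and 29.1 units in GFP-positive arrays and 969, 624 and 768 units in GFP-negative arrays. It fell by 4.05 on the log2 scale (SE 0.18, adjusted p = 9.03e-05).

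Promoter sequence is shown for Sema3g and Efna1, which were higher, and for Epha5 and Efna5, which were lower, to show a semaphorin and an ephrin-A that rose beside a receptor and an ephrin-A that fell. Each window holds the 250 bases before a listed start (GRCm38.p6), written 5′ to 3′ on the gene's strand. The Epha5 window lies inside the RefSeq span of the gene, which reaches to 84417818, so it does not precede the whole gene. Capitals mark GGGCGG, the core of the GC box, and TATAA, the core of the TATA box, on either strand.
Sema3g, chr14:31217623-31217872, plus strand: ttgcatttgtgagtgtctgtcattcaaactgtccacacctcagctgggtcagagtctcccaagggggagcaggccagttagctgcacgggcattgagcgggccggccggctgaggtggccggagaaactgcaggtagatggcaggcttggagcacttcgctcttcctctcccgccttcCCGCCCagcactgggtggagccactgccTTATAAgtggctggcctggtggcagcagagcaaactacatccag
Efna1, chr3:89280952-89281201, minus strand, the first of 2 listed starts: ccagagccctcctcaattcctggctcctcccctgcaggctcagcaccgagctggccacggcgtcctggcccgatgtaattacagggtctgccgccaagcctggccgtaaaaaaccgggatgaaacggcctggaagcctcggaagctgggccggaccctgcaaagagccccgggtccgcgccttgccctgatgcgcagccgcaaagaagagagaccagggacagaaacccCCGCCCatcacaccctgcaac
Epha5, chr5:84417383-84417632, minus strand: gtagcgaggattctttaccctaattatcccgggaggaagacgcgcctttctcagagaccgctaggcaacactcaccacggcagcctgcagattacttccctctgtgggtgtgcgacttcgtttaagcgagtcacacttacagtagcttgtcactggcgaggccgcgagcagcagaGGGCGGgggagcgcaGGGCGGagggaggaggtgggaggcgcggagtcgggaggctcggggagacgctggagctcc
Efna5, chr17:62881318-62881567, minus strand: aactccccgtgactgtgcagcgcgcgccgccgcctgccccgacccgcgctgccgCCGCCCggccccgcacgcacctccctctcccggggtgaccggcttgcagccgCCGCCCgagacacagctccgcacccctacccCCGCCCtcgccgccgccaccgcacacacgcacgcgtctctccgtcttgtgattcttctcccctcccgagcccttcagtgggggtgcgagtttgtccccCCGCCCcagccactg

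The windows differ in composition. The Sema3g window holds 8 CpG dinucleotides and a TATAA core towards its 3′ end, where the matches on both strands overlap, whereas the Efna5 window holds 32 CpG, 4 GC boxes and no TATAA. Windows of the members that fell held 13 to 32 CpG and those of the members that rose 6 to 18. The median was 15.5 over the 50 windows of all members, passed or not, and 6 over all 32851 windows. GGGCGG occurred on either strand in a window of each of the 10 members that passed, though Sema6d also has a window without it. Counted by window, it was in 38 of the 50 windows of all members, passed or not, and in 32.7% of all windows. The motif was thus common in the family as a whole and not only in the members that passed. TATAA was in a window of Sema3g and of Sema6d, in 3 of the 50 member windows and in 22.8% of all windows. The ETS site CCGGAAG, the forkhead site GTAAACA and the SOX site AACAATG were in no window of the 10 genes, and in 6.91%, 3.17% and 3.29% of all windows. The homeodomain site TAATTA was in a window of Efna1 and of Epha5, and in 4.84% of all windows. A match is a description of these letters only.

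Class 3 semaphorins other than Sema3g did not pass. Sema3b, secreted like the other class 3 members, read 74.4 ± 14.2 in GFP-positive and 53.0 ± 6.05 in GFP-negative cells, a log2 difference of 0.38 (95% confidence interval 0.06 to 0.71, adjusted p = 0.112). Sema3d was the brightest class 3 member that did not pass, with 103, 104 and 107 units in GFP-positive arrays and 79.7, 88.6 and 97.2 in GFP-negative arrays. Its arrays did not overlap, yet the difference was 0.21 (adjusted p = 0.189). Sema3a, the repulsive ligand that acts through neuropilin-1 and A-type plexins, gave 58.6 ± 12.1 units in GFP-positive and 49.8 ± 15.1 in GFP-negative cells, a difference of 0.19 (-0.28 to 0.66). A dimmer Sema3a probe set on chip B, at 11.5 ± 1.65 units in GFP-positive and 27.4 ± 4.26 in GFP-negative cells, passed in the lower direction (-0.66, adjusted p = 0.00628). Sema3c and Sema3f, both secreted, gave 0.10 each and were below their chip's median in both populations, where intensity may be background. A dim second Sema3c probe set passed at 0.42 (adjusted p = 0.0288), with 18.2 ± 0.905 units in GFP-positive and 9.73 ± 2.43 in GFP-negative cells.

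Sema3d and Sema3a lie next to each other in the RefSeq gene order, with 0 protein-coding genes between them. Sema3e, the Plexin-D1 ligand, read 53.9 ± 14.4 units in GFP-positive and 72.2 ± 8.76 in GFP-negative cells and did not pass (-0.35, adjusted p = 0.215), but it passed at -0.51 without GFP-positive replicate 3 (adjusted p = 0.0189). Plxnd1 itself read 570.5 ± 50.3 units in GFP-positive and 31.9 ± 1.15 in GFP-negative cells and rose by 3.61 (adjusted p = 2.68e-05).

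Class 4 semaphorins, which span the membrane and bind B plexins among other receptors, included 1 member that fell. Sema4g read 58.2, 70.4 and 55.5 units in GFP-positive arrays and 156, 170.0 and 164 units in GFP-negative arrays. It fell by 1.22 (SE 0.10, adjusted p = 0.000398) without overlap. The other Sema4g probe sets, both on chip C, gave 0.07 and 0.00 and did not pass, so the call rests on 1 of 3 probe sets. Sema4c, the brightest class 4 member that did not pass, spread widely at 218, 502 and 323 units in GFP-positive arrays against 165, 231 and 239 in GFP-negative arrays (0.62, adjusted p = 0.191). Sema4b did not pass either (0.11, -0.19 to 0.41).

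Class 5 semaphorins carry thrombospondin repeats and are known for keeping neurites within their layers in the retina. Sema5a read 39.7, 39.5 and 34.1 units in GFP-positive arrays and 515, 364 and 237 units in GFP-negative arrays. The GFP-negative arrays varied widely among themselves but all lay far above the GFP-positive ones, and the difference was -2.79 (SE 0.26, adjusted p = 0.00206). A second probe set on chip A gave -2.65 (adjusted p = 0.000769), at 8.92 ± 0.584 units in GFP-positive and 146 ± 53.7 in GFP-negative cells.

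Class 6 semaphorins span the membrane and bind A-type plexins. Sema6d read 722, 697 and 402 units in GFP-positive arrays and 68.8, 39.9 and 55.0 units in GFP-negative arrays. It rose by 3.12 (SE 0.26, adjusted p = 0.000368), second only to Sema3g in the family, and by 3.38 without GFP-positive replicate 3, its lowest GFP-positive array. A second Sema6d probe set on chip A gave 85.0 ± 14.1 units in GFP-positive and 59.5 ± 2.82 in GFP-negative cells, a difference of 0.41 that did not pass (adjusted p = 0.056) with all arrays and passed at 0.30 without that replicate (adjusted p = 0.0338).

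Sema6b lay in the same direction and did not pass in the test used throughout. It read 149, 314 and 135 units in GFP-positive arrays against 45.5, 67.8 and 91.0 in GFP-negative arrays, with no overlap, and differed by 1.30 (0.43 to 2.17, adjusted p = 0.0548). With all arrays it passed under 5 alternatives, namely quantile normalization (1.32, adjusted p = 0.0467), a pseudocount of 1 (1.48, adjusted p = 0.0401), brighter probe sets alone (1.30, adjusted p = 0.0334), a robust variance trend in limma (1.30, adjusted p = 0.0383) and array weights (1.59, adjusted p = 0.0145). Under the other alternatives with all arrays Sema6b did not pass. Nor did it pass when any array but GFP-positive replicate 3 was left out (adjusted p from 0.0725 to 0.173 in limma). Sema6a gave 0.33 (adjusted p = 0.094) at 91.3 ± 13.9 units in GFP-positive and 68.8 ± 4.40 in GFP-negative cells. One of its 4 other probe sets passed, at 54.6 ± 14.5 units in GFP-positive and 23.4 ± 0.658 in GFP-negative cells (0.82, adjusted p = 0.0101). A dim one gave -0.07 with all arrays and -0.26 (adjusted p = 0.0389) without GFP-positive replicate 3, in the opposite direction.

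Sema7a, the only class 7 member, is lipid-anchored and signals through Plexin-C1 and integrins that contain the beta-1 chain. It read 293, 375 and 199 units in GFP-positive arrays and 73.1, 75.8 and 79.6 units in GFP-negative arrays, a rise of 1.68 (SE 0.21, adjusted p = 0.00374). A dimmer probe set gave 0.18 and did not pass. Its receptor gene Plxnc1 lay the other way, at 18.4, 18.8 and 16.9 units in GFP-positive arrays and 139.8, 106 and 75.9 in GFP-negative arrays. Plxnc1 fell by 1.82 (SE 0.19, adjusted p = 0.00317), and its GFP-positive values were below the chip's median of 33.1. Itgb1, which encodes the integrin beta-1 chain, was bright in both populations and rose by 1.18 (2946 ± 376 units in GFP-positive and 1291 ± 196 in GFP-negative cells, adjusted p = 0.00314).

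No plexin receptor of the A, B or C groups was higher in GFP-positive cells, against 9.89% of all genes. With 8 plexins nothing is read from this count. Among the A plexins, which serve as receptors of class 6 and, with neuropilins, of class 3 semaphorins, Plxna1 read 32.2 ± 1.71 units in GFP-positive and 32.1 ± 2.31 in GFP-negative cells with a difference of 0.00 (-0.17 to 0.18). Plxna1 was below the chip's median in both populations, where intensity may be background. Plxna2 gave 0.31 (-0.05 to 0.68) and Plxna4 0.28 (0.03 to 0.54, adjusted p = 0.114). The Plxna4 arrays did not overlap, at 74.7, 70.1 and 72.0 units in GFP-positive and 48.1, 58.1 and 64.3 in GFP-negative arrays. One of 4 other Plxna2 probe sets, dim at 21.3 ± 1.02 units in GFP-positive and 15.6 ± 0.45 in GFP-negative cells, passed at 0.24 (adjusted p = 0.0486). Plxna4os1 gave 26.3 ± 1.95 units in GFP-positive and 21.0 ± 2.08 in GFP-negative cells and did not pass (0.19, adjusted p = 0.18).

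Of the B plexins, Plxnb2 read 75.7, 74.6 and 111 units in GFP-positive arrays and 159.8, 144 and 140.0 in GFP-negative arrays. It fell by 0.69 (SE 0.15, adjusted p = 0.0263), a call that ended when any array but GFP-positive replicate 3 was left out (adjusted p from 0.0683 to 0.102) and with the replicate number as a block (adjusted p = 0.0706). The second Plxnb2 probe set gave 0.12 and did not pass. Plxnb3, another B plexin, gave 0.14 and was below the chip's median in both populations.

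**Figure D2:**
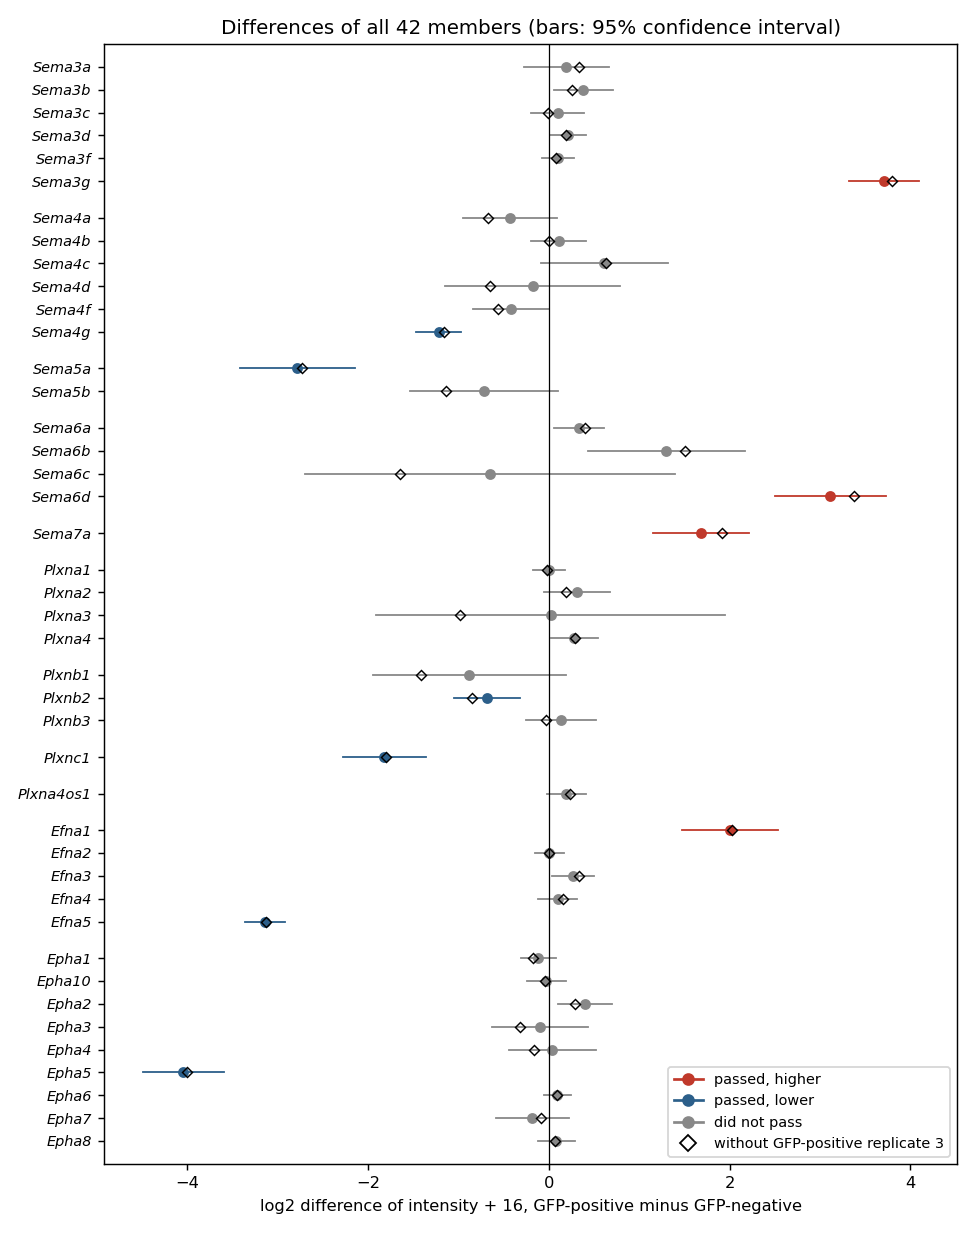
Log2 difference of each of the 42 members with its 95% confidence interval, grouped by class, and as open diamonds the difference without GFP-positive replicate 3. Sema3g at 3.71 and Epha5 at -4.05 are the extremes, most EphA receptors sit near 0, and Plxna3, Sema6c and Plxnb1 shift most when that array is left out.

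Ephrin-A ligands divided by member. Efna1, known as a ligand on endothelial cells, read 326, 304 and 303 units in GFP-positive arrays and 92.1, 68.8 and 42.6 units in GFP-negative arrays. It rose by 2.01 (SE 0.22, adjusted p = 0.00361), and a second probe set on chip A rose by 1.43 (82.9 ± 17.4 units in GFP-positive and 20.3 ± 2.28 in GFP-negative cells, adjusted p = 0.00166), while another and dimmer one gave -0.02. Efna5, which guides retinal axons, read 50.4, 53.0 and 50.3 units in GFP-positive arrays and 615.5, 613 and 509.6 units in GFP-negative arrays. It fell by 3.14 (SE 0.09, adjusted p = 8.99e-05). A second Efna5 probe set on chip B fell by 2.96 (adjusted p = 5.30e-05), whereas the one on chip A, dim at 14.3 ± 1.40 units in GFP-positive and 12.8 ± 0.69 in GFP-negative cells, gave 0.07.

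The remaining ephrin-As did not pass. Efna2 read 93.5 ± 4.56 units in GFP-positive and 93.0 ± 1.47 in GFP-negative cells, a difference of 0.01 (-0.16 to 0.17). Efna3 read 112, 106 and 92.4 units in GFP-positive and 88.8, 74.9 and 86.4 in GFP-negative arrays without overlap (0.27, adjusted p = 0.163). Efna4 gave 0.10 and was dim at 27.8 ± 3.40 units in GFP-positive and 24.8 ± 2.30 in GFP-negative cells. Efna1, Efna3 and Efna4 follow each other in the RefSeq gene order, with 0 protein-coding genes between neighbours, and of these 3 genes Efna1 was the one that passed with all arrays.

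Of the 9 EphA receptors none rose and Epha5 fell, against 9.89% of all genes higher and 12.2% lower. With so few receptors nothing is read from these counts. All 3 Epha5 probe sets fell. The second on chip A gave -2.80 (14.7 ± 1.95 units in GFP-positive and 198 ± 24.1 in GFP-negative cells, adjusted p = 4.97e-05), and the one on chip C gave -1.95 (adjusted p = 0.00338). Epha2, the EphA receptor known from endothelial and epithelial cells, read 65.7, 79.6 and 95.4 units in GFP-positive arrays and 55.0, 58.7 and 55.3 in GFP-negative arrays. Its arrays did not overlap, but the difference of 0.40 did not pass (0.10 to 0.70, adjusted p = 0.0781). It passed at 0.51 without GFP-positive replicate 1 (adjusted p = 0.0266).

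Epha7, the brightest EphA receptor that did not pass, gave different answers by probe set. The brightest, on chip B, read 90.1, 86.3 and 68.3 units in GFP-positive and 75.7, 91.7 and 119.7 in GFP-negative arrays with overlap (-0.18, -0.59 to 0.22). A dimmer one on chip A read 18.2 ± 4.97 units in GFP-positive and 96.8 ± 39.0 in GFP-negative cells and fell by 1.67 (adjusted p = 0.00966). Epha1 gave -0.11 (-0.31 to 0.08), Epha8 gave 0.08 (-0.12 to 0.28) and Epha10 gave -0.03 (-0.24 to 0.19). Epha3, Epha4 and Epha6, receptors of ephrin-As, gave -0.09, 0.04 and 0.09 and were below the chip's median in both populations, so their levels may be background.

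**Figure D3:**
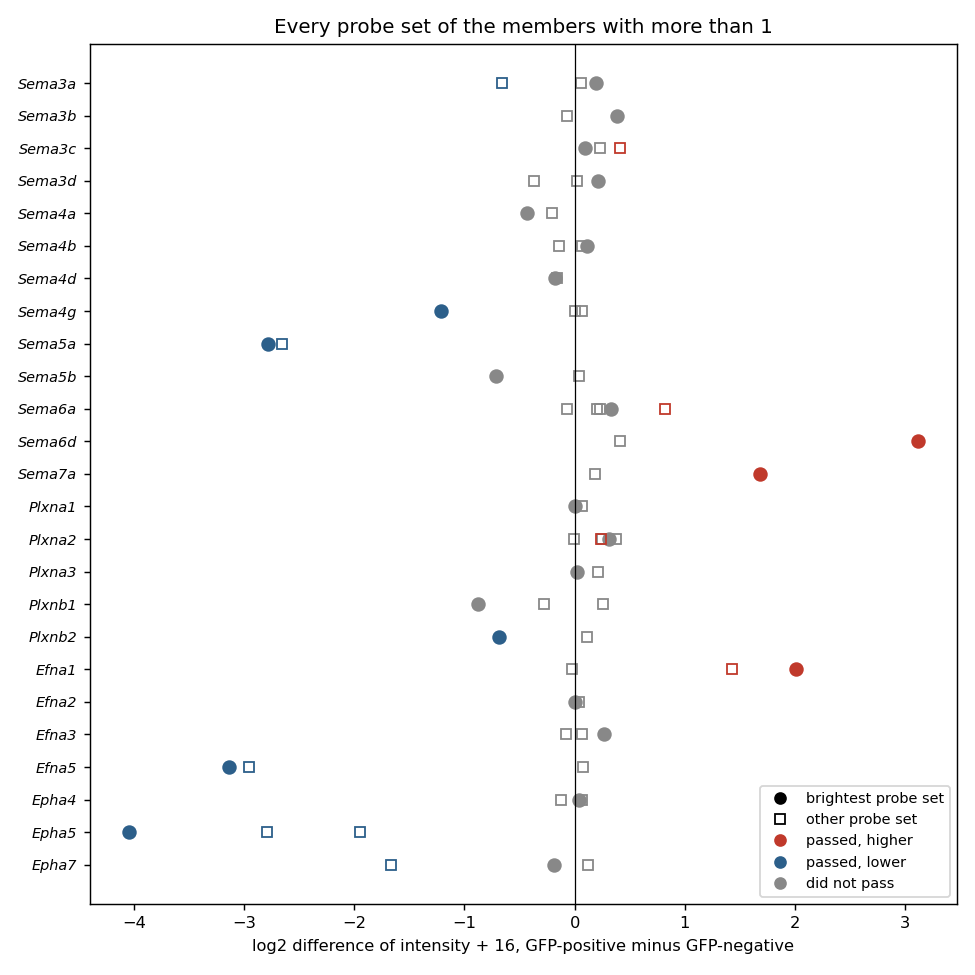
Log2 difference of every probe set of the 25 members that have more than 1, with filled circles for the brightest and open squares for the others. Epha5, Efna5, Sema5a and Efna1 have a second probe set that passed in the same direction, Sema6d, Sema7a, Sema4g and Plxnb2 do not, and no member has probe sets that passed in opposite directions with all arrays.

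Of the 8 members that passed and have more than 1 probe set, 4 had another that passed in the same direction, against 32.8% of all genes that passed and have more than 1. Sema3g and Plxnc1 have a single probe set. Over all 85 member probe sets 8 were higher (9.41%, against 8.10% of all probe sets with 1 gene symbol) and 12 lower (14.1%, against 10.1%), so both shares lay near the background.

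Among the 32 members that did not pass, 25 had a 95% confidence interval within 2-fold either way, that is, between -1 and 1 on the log2 scale. In 10 of the 32 the arrays did not overlap and the GFP-positive ones were higher. Over all members, 14 were without overlap in the higher direction (33.3%, against 22.3% of all genes) and 6 in the lower direction (14.3%, against 19.4%). In 30 of the 42 members the mean was at least 50 units in 1 population, and these included all 10 that passed. In 9 members it was below the chip's median in both populations.

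Leaving out GFP-positive replicate 3 brought 9 further members past the threshold. Without it 13 members were lower (31%, against 17.4% of all genes) and 6 were higher (14.3%, against 15.0%), and all 10 earlier calls were kept. The 7 added lower members were Sema4a, Sema4d, Sema4f, Sema5b, Sema6c, Plxna3 and Plxnb1, and the 2 added higher members were Sema6b and Efna3. Of these 9, 7 passed with all arrays under array weights, while Plxna3 and Sema4d did not. Such weights count arrays that stand apart less, as replicate 3 did, so this is not a separate check.

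Sema6c, a class 6 semaphorin, read 122, 152 and 1197 units in GFP-positive replicates 1 to 3 and 371, 594 and 445 units in GFP-negative arrays. Replicate 3 was 8.72 times the mean of its fellows and above every GFP-negative array. The difference was -0.65 (-2.70 to 1.40, adjusted p = 0.674) with all arrays and -1.65 (adjusted p = 0.00428) without it. Plxna3, a receptor that works with neuropilins, showed the same pattern at 128, 127 and 1148 units in GFP-positive and 204, 367 and 255 in GFP-negative arrays, with 0.02 (adjusted p = 0.988) with all arrays and -0.99 (adjusted p = 0.0162) without it. The second Plxna3 probe set, on chip A, gave 0.21 with all arrays and 0.27 without that one, and did not pass in either.

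Plxnb1, a receptor of Sema4d, read 89.6, 89.5 and 307 units in GFP-positive arrays and 276, 323 and 209.9 in GFP-negative arrays, and gave -0.88 (adjusted p = 0.212) with all arrays and -1.42 (adjusted p = 0.0012) without replicate 3. Its other probe sets did not pass with or without that array. The one on chip B read 201 ± 35.1 units in GFP-positive and 165 ± 29.7 in GFP-negative cells. It lay in the opposite direction, at 0.26 with all arrays and 0.13 without replicate 3. A dimmer one on chip C gave -0.28 and then -0.22. Sema4d read 47.7, 47.2 and 154 units in GFP-positive and 80.8, 90.7 and 80.3 in GFP-negative arrays, or -0.18 (adjusted p = 0.816) and, without replicate 3, -0.65 (adjusted p = 0.00347). Sema5b read 83.9, 88.9 and 228 units in GFP-positive and 202, 239 and 188 in GFP-negative arrays, or -0.72 (adjusted p = 0.189) and then -1.13 (adjusted p = 0.00082). Its other probe set read 77.1 ± 17.7 units in GFP-positive and 73.8 ± 6.07 in GFP-negative cells and passed neither with all arrays (0.04) nor without replicate 3 (-0.11, adjusted p = 0.353). In these 5 genes GFP-positive replicates 1 and 2 lay close together below every GFP-negative array, and replicate 3 lay within or above the GFP-negative range.

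The other 4 shifts were smaller. Sema4a read 53.3, 54.6 and 101 units in GFP-positive and 91.4, 97.8 and 98.8 in GFP-negative arrays and gave -0.43 (adjusted p = 0.247) with all arrays and -0.68 (adjusted p = 0.00205) without replicate 3. Sema4f read 35.6, 32.0 and 50.1 units in GFP-positive and 44.5, 64.3 and 64.9 in GFP-negative arrays and gave -0.42 (adjusted p = 0.164) and then -0.56 (adjusted p = 0.0448). Dim second probe sets of Sema4a (-0.28, adjusted p = 0.0444) and Sema4d (-0.27, adjusted p = 0.0455) also passed without that array. Sema6b reached 1.51 (adjusted p = 0.0322) and Efna3 0.34 (adjusted p = 0.0387). Another Efna3 probe set, on chip A, then passed in the lower direction (-0.32, adjusted p = 0.0428), having given -0.08 with all arrays. Csf1r, given above, and 1 Müller glia marker, the glutamine synthetase gene Glul, were also bright in replicate 3. Glul read 986 units there, 135.7 and 156 in replicates 1 and 2, and 117 to 142 in GFP-negative arrays. The 7 added lower members were likewise brightest in replicate 3 among the GFP-positive arrays, whereas Sema6b and Efna3 were dimmest in it. The part of the Csf1r and Glul signals in the result was not tested. The other 6 Müller glia markers on chip A did not set replicate 3 apart, with sums of 612, 900.1 and 880.3 units in GFP-positive replicates 1, 2 and 3 and 3851 to 5721 in GFP-negative arrays.

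**Figure D4:**
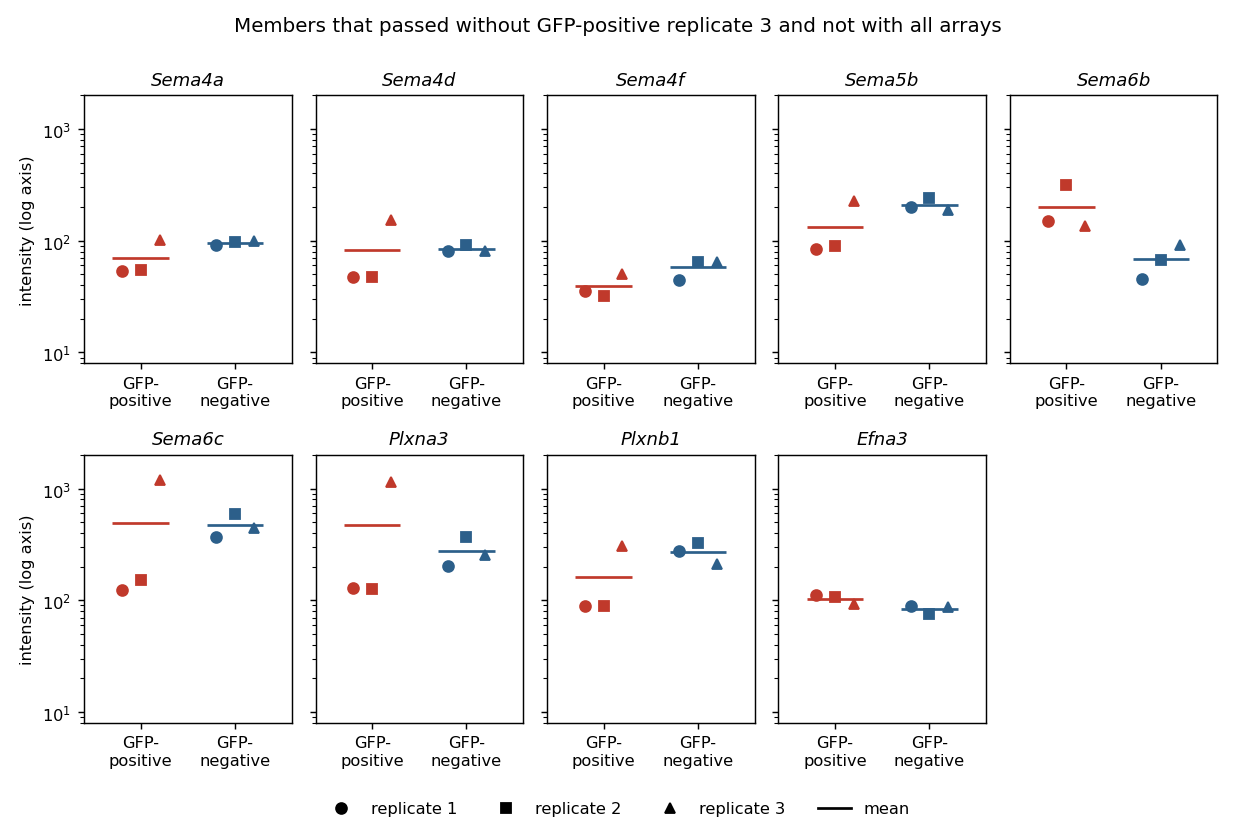
Intensity on a log axis of the 9 members that passed when GFP-positive replicate 3 (red triangle) was left out and not in the same test with all arrays, GFP-positive cells left and GFP-negative cells right, with the mean as a line. In Sema6c and Plxna3 that array reads 1197 and 1148 units, above all others, while in Sema6b and Efna3 it is the lowest GFP-positive array.

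Genes that work beside these families were taken as lists. Of 10 co-receptors and partners 4 rose and 3 fell, with a median difference of 0.15. These and the next counts stand against 9.89% of all genes higher and 12.2% lower, and against 15.0% and 17.4% without GFP-positive replicate 3. Nrp1, the co-receptor shared by class 3 semaphorins and VEGF, rose by 2.44, and the collagen-binding integrin chain Itga1 by 2.65 (253 ± 93.3 units in GFP-positive and 25.0 ± 4.50 in GFP-negative cells). Nrp2, the neuropilin that binds Sema3f, was added to the named genes after its values were seen and rose by 1.14 (it read 62.2 ± 28.4 units in GFP-positive and 18.2 ± 1.27 in GFP-negative cells, adjusted p = 0.0172). Chl1 and Nrcam, neural adhesion molecules that join neuropilin complexes, fell by 3.11 and 1.32, and the plexin-associated receptor kinase gene Met fell by 1.66.

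The 22 measured plexin effectors had 6 members that rose and 1 that fell, with a median of 0.29. Fes, a tyrosine kinase downstream of semaphorins, rose by 1.39, and the R-Ras group GTPases Rras and Rras2 rose by 0.90 and 0.87. Rnd2, a small GTPase of neurons, fell by 0.97. The CRMP branch, the collapsin response mediators of growth cones with their kinases, had 5 of 7 lower, 1 higher and a median of -1.61. Dpysl4 gave -4.39 (16.1 ± 1.41 units in GFP-positive and 661 ± 98.3 in GFP-negative cells), Dpysl5 -2.86 and Crmp1 -2.60, while Dpysl3 rose by 1.15.

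Of 20 measured EphA effectors 4 rose and 2 fell, with a median of 0.03, and the share that fell lay near that of all genes. Arhgef15, a GTPase exchange factor known from vascular cells, rose by 2.76 (576 ± 26.7 units in GFP-positive and 72.4 ± 17.2 in GFP-negative cells, adjusted p = 7.74e-05), the GTPase gene Rhoa by 1.68 and Adam10, a protease that cleaves ephrins, by 1.03. Ptpro, a phosphatase that acts on Eph receptors, fell by 2.70, and Chn1, the chimaerin that relays EphA4 signals in mouse neurons, by 0.86. None of the 6 measured EphB and ephrin-B genes passed in limma's test (at an unadjusted p under 0.05, 0 were higher and 1 lower), and their median was -0.21. Without GFP-positive replicate 3 the plexin effectors had 9 higher and 3 lower, the EphA effectors 5 and 3, and 1 EphB or ephrin-B gene was lower, and the lower counts of both effector lists lay near the background.

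**Figure D5:**
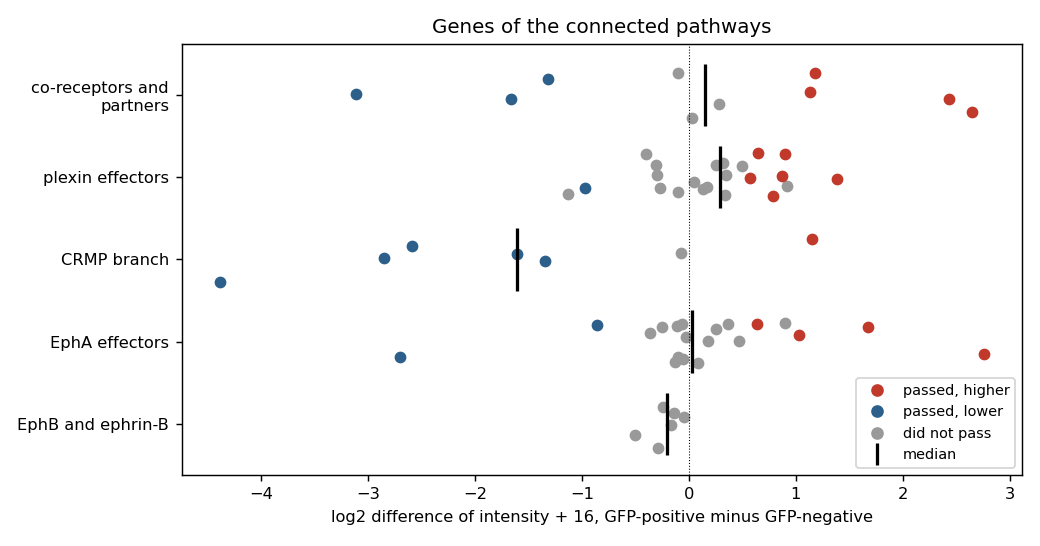
Log2 differences of the genes in 5 connected lists, 1 point per gene, with the list median as a black bar. The CRMP branch lies lowest with a median of -1.61, and the other medians lie between -0.21 and 0.29.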

How the data were processed

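Expression was measured on 18 arrays, 3 for each population on each of 3 chips. The deposited intensity values were used as the authors tabulated them, and the probe summary, background correction and scaling are not given in the sources used here. Chip medians were 43.9, 43.1 and 33.1 units for chips A, B and C, so the brightest probe set was chosen across tables set apart. All columns were mapped to a sample. Detection calls and probe sets without exactly 1 gene symbol were not used.

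From the deposited intensity, log2 of the value plus 16 was fitted per chip with lmFit and eBayes (limma 3.58.1, R 4.3.3), two-sided. P-values were adjusted by the Benjamini-Hochberg method, chip by chip, and a probe set passed under 0.05. No precision is known beyond the 3 arrays of a group. The script was tested on simulated data. Members named with each array's value were those that passed, those that passed with 1 array left out and not with all arrays, and the brightest of each class that did not pass, with up to 3 genes per direction from each list. Members and lists were chosen with earlier results of these data known. Same-numbered arrays of the populations did not all deviate together (correlations of deviations -0.368 to 0.292), so numbers were not taken as pairs. Alternatives covered normalization, pseudocount, filter, variance model, array weights, replicate block, adjustment, threshold, probe set choice and leaving out each array. Figures were drawn with matplotlib 3.10.9.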

Additional observations from a re-analysis of the deposited data

How the results depend on the processing

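With all arrays, 3 semaphorin and plexin genes were higher and 4 lower, and 1 EphA or ephrin-A gene was higher and 2 lower. Array weights gave 7 and 9 for semaphorins and plexins and 3 higher for EphA and ephrin-A genes. Quantile normalization, a pseudocount of 1, brighter probe sets alone and a robust variance trend each gave 4 higher semaphorins and plexins, with Sema6b added. Leaving out each array in turn gave 3 to 4 higher and 3 to 11 lower semaphorins and plexins, the 11 without GFP-positive replicate 3, and 1 to 2 higher EphA and ephrin-A genes, the 2 without GFP-positive replicate 1 or 3, with 2 lower throughout. The replicate number as a block gave 3 lower semaphorins and plexins, since Plxnb2 no longer passed (adjusted p = 0.0706), and changed no other call. Plxna3 ranged from -0.99, without GFP-positive replicate 3, to 0.53 as single arrays were left out, and Efna5 turned to 0.0739 when the probe set of the first chip that holds the gene was used, a dim one. Sema6d gave 0.41 and did not pass with that choice, while Plxna2 (0.24, adjusted p = 0.0486) and Epha7 (-1.67, adjusted p = 0.00966) passed, so the counts stayed at 3 higher semaphorins and plexins and 2 lower EphA and ephrin-A genes with partly different genes. The cause of these shifts was not tested. With 3 arrays a group, differences of dim probe sets have wide limits.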
